A study of Mus musculus with 18 samples.

Results

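The genes described here code for collagens, laminins, fibulins, fibrillins and nidogens, the structural proteins of the extracellular matrix, in the embryonic mouse neocortex. They were chosen by symbol: every collagen chain, laminin chain and fibulin, with fibrillin 1 and 2 and nidogen 1 and 2, that the platform annotation names, with 1 probe per gene (the probe with values on most arrays). The rule found 57 genes on 64 of 21998 probes, and 53 of the genes had enough values to be tested. They were divided into 11 fibrillar collagens, 20 basement membrane genes (collagen IV, laminins, nidogens and collagens XV and XVIII) and 26 others, of which 22 were tested. Fbn1 was not analysed here.

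The tissue was neocortex of MF1 mouse embryos at E13.5 (mid-gestation), compared between its rostral, middle and caudal parts. Per the labels there were 3 rostral pools (R1 to R3), 3 middle pools (M1 to M3) and 3 caudal pools (C1 to C3), collected from 4 embryos, and no group carried a mutation or treatment. Total RNA of 2 pools of different regions was hybridised on each of 18 arrays with 2 dyes, so that each pool was on 4 arrays and each pair of regions on 6. Since the link from embryos to pools is not given, the p-values cover pool-to-pool variation only, and part of that may be technical.

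Fibrillar collagens assemble into the fibres of connective tissue. In the embryonic cortex they are known mainly from the meninges and the walls of vessels. Basement membranes are sheets built from laminin and collagen IV networks that nidogens join. One such sheet, the pial basement membrane, covers the cortex and anchors the end feet of radial glia, and others surround its vessels. Fibrillins form the microfibrils of elastic fibres, and fibulins bind to both microfibrils and basement membranes.

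All values are on the log2 scale. A pool value is the level of a gene in a pool relative to the mean of the 9 pools, and a difference is the mean of the first region minus that of the second, with its standard error (SE). A ratio on an array holds no absolute level, so levels cannot be compared between genes, and in pooled tissue fewer cells of a type and less RNA per cell cannot be told apart. The direction of the deposited ratios is not stated. It was read as Cy5 over Cy3 and is likely: Nr2f1, known as a caudal gene of the cortex, was lower in rostral than in caudal pools (difference -1.02, SE 0.07, limma adjusted p = 0.0138), and Etv1, known as a rostral gene, was higher (difference 0.80, SE 0.07, limma adjusted p = 0.0272). An array gave between 18085 and 20693 values, and 44 of the 53 matrix genes had a value on all 18 arrays. The number of arrays limits the precision.

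The collagen IV chains are coded by genes that lie in pairs, head to head. Promoters of the pairs Col4a1 with Col4a2 and Col4a5 with Col4a6 are shown, a choice made after their values were seen. It rests on the pool values, which correlated at r = 0.88 for the first pair and at r = -0.61 for the second. C3 was far from the other pools for Col4a1, Col4a2 and Col4a6, but less so for Col4a5. The windows run from 250 bases before to 50 bases after the gene's start (RefSeq, GRCm38.p6). The Col4a1 window is chr8:11312777-11313076 on the minus strand and the Col4a2 window chr8:11312555-11312854 on the plus strand. Capitals mark the 78 bases that both windows hold, read from opposite strands.
Col4a1: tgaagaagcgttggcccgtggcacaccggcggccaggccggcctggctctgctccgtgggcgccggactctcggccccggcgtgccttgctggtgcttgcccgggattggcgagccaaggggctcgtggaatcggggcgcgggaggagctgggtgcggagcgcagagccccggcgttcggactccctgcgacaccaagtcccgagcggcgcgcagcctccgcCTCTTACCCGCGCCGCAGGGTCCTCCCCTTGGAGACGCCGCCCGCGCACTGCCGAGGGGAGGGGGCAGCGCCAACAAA
Col4a2: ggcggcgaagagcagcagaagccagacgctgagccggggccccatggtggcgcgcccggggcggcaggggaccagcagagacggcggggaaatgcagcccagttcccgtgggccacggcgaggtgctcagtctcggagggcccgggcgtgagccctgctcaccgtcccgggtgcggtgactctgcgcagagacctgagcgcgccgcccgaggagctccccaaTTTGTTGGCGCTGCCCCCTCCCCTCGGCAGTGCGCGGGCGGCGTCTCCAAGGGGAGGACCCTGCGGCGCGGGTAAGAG
The Col4a6 window, chrX:141474027-141474326 on the minus strand, and the Col4a5 window, chrX:141475169-141475468 on the plus strand, do not overlap and lie 842 bases apart. In these, capitals mark the GC box (GGGCGG, or CCGCCC on the other strand) and the CCAAT box.
Col4a5: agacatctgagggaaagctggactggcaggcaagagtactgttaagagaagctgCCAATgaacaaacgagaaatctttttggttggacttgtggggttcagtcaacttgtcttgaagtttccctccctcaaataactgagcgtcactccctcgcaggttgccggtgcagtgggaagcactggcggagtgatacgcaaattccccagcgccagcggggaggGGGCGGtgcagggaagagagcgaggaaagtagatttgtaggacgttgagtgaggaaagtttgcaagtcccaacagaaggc
Col4a6: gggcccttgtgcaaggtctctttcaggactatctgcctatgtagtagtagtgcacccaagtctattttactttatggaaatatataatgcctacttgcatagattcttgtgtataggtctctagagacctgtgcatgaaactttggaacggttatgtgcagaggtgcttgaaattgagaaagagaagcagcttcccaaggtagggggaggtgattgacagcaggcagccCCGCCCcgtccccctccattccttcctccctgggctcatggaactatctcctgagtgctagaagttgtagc

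Promoters of 41 of the 57 genes were in the table. The letters GGGCGG, on either strand, were in 63.4% of them (26 of 41), against 35.7% of all 32851 promoters of the same length. CCAAT was in 39% against 37.4% of all, and TATAAA in 12.2% against 8.32%. The matrix promoters had a median GC content of 60.3%, against 52.7% over all promoters. A match of letters is a description and not a site of binding.

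No matrix gene differed between regions after adjustment over all features. With limma and Benjamini-Hochberg adjustment, 0 of 53 had an adjusted p under 0.05 in rostral against caudal, where 12 of 18525 features (0.0648%) did. In rostral against middle and in middle against caudal 0 matrix genes and 0% of features passed, and in the F test of any difference among the 3 regions 0 matrix genes and 0.0108% of features. At an unadjusted p under 0.05, 5 of 53 matrix genes (9.43%) were found in rostral against caudal, beside 7.9% of all features. In rostral against middle 3 (5.66%) were found beside 5.25%, in middle against caudal 0 beside 4.86%, and in the F test 1 beside 6.71%. The 6 genes behind these counts were Fbn2, Lama1, Col7a1, Fbln1, Col6a2 and Col4a6, and none of their differences passed the adjustment. Pools of the 2 regions did not overlap for 8 genes (15.1%) in rostral against caudal, beside 12.1% of features, for 4 genes (7.55%) in rostral against middle, beside 12.8%, and for 3 genes (5.66%) in middle against caudal, beside 10.6%. Differences were below 0 for 29 of 53 genes in rostral minus caudal, beside 49.6% of features, for 27 in rostral minus middle, beside 49.3%, and for 30 in middle minus caudal, also beside 49.3%.

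The size of a regional difference was bounded for most matrix genes. The 95% interval of the rostral minus caudal difference lay inside a 2-fold change either way for 48 of 53, beside 78.6% of features, and inside 1.5-fold for 38 of 53, beside 62.9%. All 11 fibrillar collagens lay inside 2-fold. The intervals were widest for Col16a1, Col25a1 and Col4a3, which had residual SDs between arrays of 1.24, 1.08 and 0.83, against a median of 0.26 over all features.

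**Figure D1:**
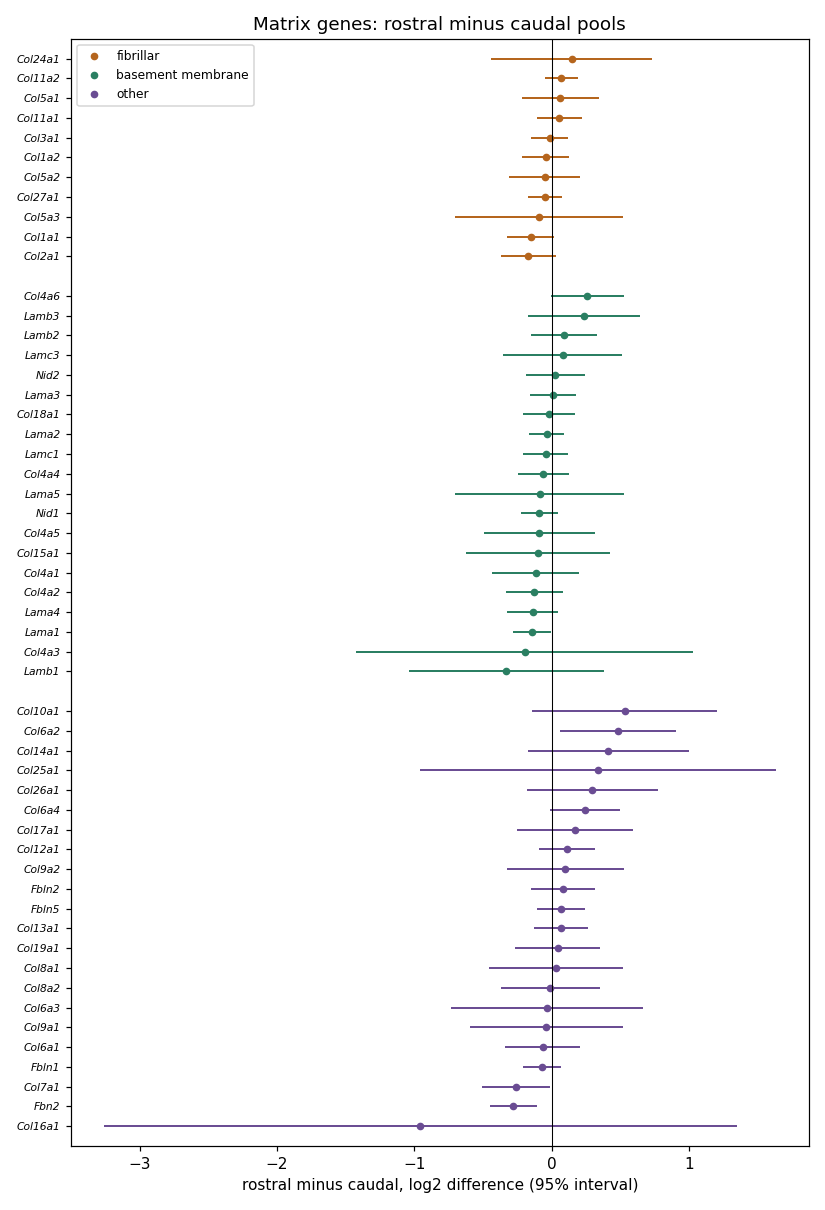
Rostral minus caudal difference (log2) of the 53 tested matrix genes by class, with 95% intervals from limma as lines. Most intervals include 0, and the interval of Col16a1 is the widest, from -3.26 to 1.34.

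No fibrillar collagen, by the probe that stands for it, had an unadjusted p under 0.05 in any comparison. Their median difference was -0.04 for rostral minus caudal, with 4 above and 7 below 0, and -0.00 for rostral minus middle and -0.08 for middle minus caudal, where the median over all features was 0.00 each time. In middle minus caudal 2 were above and 9 below 0, and all 7 chains of collagens I, II, III and V were below, with a median of -0.11. These 7, not set apart as a class in advance, ranged from -0.16 to -0.01, and their median by pool was highest in C1 (0.13). The 4 chains of collagens XI, XXIV and XXVII were 2 above and 2 below 0. Without C1 the class median in middle minus caudal was -0.02. Col3a1, the chain of collagen III, had one of the narrowest intervals: its difference was -0.01 (SE 0.05, 95% interval -0.14 to 0.11), and its 9 pool values lay between -0.05 and 0.08. Col1a1 and Col1a2 code for the chains of collagen I. Col1a1 had 0.00, -0.07 and -0.13 in rostral pools, -0.02, -0.10 and 0.05 in middle pools and 0.13, -0.01 and 0.15 in caudal pools. C1 and C3 were above every other pool, and C2 lay among them. The rostral minus caudal difference of Col1a1 was -0.15 (SE 0.07, limma adjusted p = 0.676). Col1a2 had 0.04, -0.10 and -0.01 in rostral pools, 0.02, -0.09 and 0.07 in middle pools and 0.06, -0.08 and 0.08 in caudal pools, and all regions overlapped. Col2a1, the chain of collagen II, best known from cartilage, had the lowest difference of the class, at -0.17 (SE 0.08, adjusted p = 0.709). Its values were -0.06, 0.01 and -0.15 in rostral pools, -0.03, -0.08 and -0.00 in middle pools and 0.08, -0.03 and 0.26 in caudal pools, and C3 was the highest of the 9. Among the others, Col5a1, Col11a1, Col11a2 and Col24a1 had differences of 0.06, 0.06, 0.07 and 0.15, and Col5a2, Col5a3 and Col27a1 of -0.05, -0.09 and -0.05. Col24a1 had the highest rostral minus middle difference of the class, 0.39 (SE 0.25, 95% interval -0.19 to 0.96). It also had the highest residual SD between arrays of the class, 0.78. The second probe of Col11a1 had a rostral minus middle difference of 0.77 (SE 0.27, unadjusted p = 0.0233, limma adjusted p = 0.892), against -0.02 for the probe that stands for the gene. In rostral minus caudal the second probe had 0.51 (SE 0.27), with pools that did not overlap, against 0.06. It was noisy, with a residual SD between arrays of 0.84.

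Of the basement membrane genes, 6 were above and 14 below 0 in rostral minus caudal, with a median of -0.07. The median was -0.01 for rostral minus middle and -0.04 for middle minus caudal. The count rests partly on a single pool: C3 was the highest of the 9 pools for 8 of the 20 genes and for 14.6% of all features, and without C3 the rostral minus caudal median was -0.00. The class median by pool was -0.02, 0.02 and -0.00 in rostral pools, 0.02, -0.02 and -0.06 in middle pools and 0.05, -0.07 and 0.09 in caudal pools, and the caudal pools held both the highest and the lowest.

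Lama1, an alpha chain of the laminins of the early pial basement membrane, was the most precisely measured matrix gene, with a residual SD between arrays of 0.06. Its pool values were -0.07, -0.03 and -0.05 in rostral pools, 0.01, -0.03 and -0.09 in middle pools and 0.04, 0.05 and 0.17 in caudal pools. The caudal pools were above all others, and the rostral and middle pools overlapped. The rostral minus caudal difference was -0.14 (SE 0.06, 1.10-fold, unadjusted p = 0.0359, limma adjusted p = 0.566), and middle minus caudal was -0.13 (unadjusted p = 0.052). Without C3 the rostral minus caudal difference was -0.09. On single arrays, Lama1 was below 0 on 6 of 6 that joined rostral with caudal and on 6 of 6 that joined middle with caudal, in both dye orientations. These arrays are the ones the pool values were made from, so their counts are no separate evidence. The same holds for the direct arrays of the genes described below. A second Lama1 probe gave 0.19 (SE 0.23), and the mean of both 0.03. Lama1 had an unadjusted p under 0.05 in rostral against caudal under 8 of 19 alternative settings.

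The regions overlapped for Lamc1 and Lamb1, the partners of Lama1. Lamc1, the common gamma chain, had -0.06, 0.05 and -0.02 in rostral pools, 0.02, -0.05 and -0.05 in middle pools and 0.14, -0.06 and 0.03 in caudal pools. Lamb1, the beta chain, ranged from -0.62 in R1 to 0.68 in C3, with a difference of -0.33 (SE 0.30). Lama4, an alpha chain of vessel walls, had -0.04, -0.12 and 0.04 in rostral pools, -0.07, 0.01 and -0.12 in middle pools and 0.13, -0.02 and 0.19 in caudal pools. Its regions overlapped, and its difference was -0.14 (SE 0.07, limma adjusted p = 0.77). Lama2 was among the most level genes, at -0.03 (SE 0.05, 95% interval -0.15 to 0.09). Lama3, Lama5, Lamb2, Lamb3 and Lamc3 had differences of 0.01, -0.09, 0.09, 0.24 and 0.08, each with an interval that includes 0. A second Lama3 probe gave 0.40 (SE 0.59). Of the nidogens, which link laminin to collagen IV, Nid1 had -0.09 (SE 0.05) and Nid2 0.03 (SE 0.09).

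Collagen IV forms the network of the basement membrane, with the alpha 1 and alpha 2 chains in most tissues. Col4a1 had -0.00, 0.05 and -0.16 in rostral pools, -0.07, -0.01 and -0.04 in middle pools and 0.02, -0.16 and 0.38 in caudal pools. Col4a2 had -0.08, -0.01 and -0.11 in rostral pools, -0.03, -0.04 and 0.08 in middle pools and 0.01, -0.07 and 0.23 in caudal pools. Both were highest in C3, and their rostral minus caudal differences were -0.12 (SE 0.13) and -0.12 (SE 0.09). Col4a6, the alpha 6 chain, had 0.20, 0.09 and 0.06 in rostral pools, 0.08, -0.06 and 0.06 in middle pools and -0.12, 0.06 and -0.37 in caudal pools. Its lowest rostral pool and highest caudal pool nearly met, and C3 lay far below the rest. The difference was 0.26 (SE 0.11, 1.20-fold, unadjusted p = 0.0483, limma adjusted p = 0.624), and without C3 it was 0.16. Its direct ratios averaged 0.45 with rostral in Cy5 and -0.05 with rostral in Cy3. Col4a5 had -0.27, -0.04 and 0.17 in rostral pools, 0.21, -0.10 and -0.11 in middle pools and -0.02, -0.17 and 0.33 in caudal pools. Col4a3 ranged from -1.19 to 0.88 and Col4a4 from -0.13 to 0.20, with differences of -0.20 (SE 0.52) and -0.06 (SE 0.08). Col15a1 and Col18a1, collagens of vessel and epithelial basement membranes, had -0.10 (SE 0.22) and -0.02 (SE 0.08).

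Partner chains did not all vary together over the 9 pools. These correlations are descriptions over pools that share arrays, and the pairs were chosen with earlier values known. Col4a1 with Col4a2, whose promoter windows share the capitals above, had Pearson's r = 0.88 and Spearman's rho = 0.65. Among 12570 features with values on all arrays, Col4a2 ranked 11 in its correlation with Col4a1. Without C3 and R3, the pools farthest from the median of Col4a1, r was 0.31, so the relation rests on those pools. Col1a1 with Col1a2, on different chromosomes, had r = 0.75 and rho = 0.83, and r = 0.58 without C3 and C1. Col4a5 with Col4a6 had r = -0.61, and -0.38 without C3 and M1. Col4a3 with Col4a4 had r = -0.29, and -0.24 without R2 and C3. Col6a1 with Col6a2 had r = -0.01, and 0.41 without M3 and C1. Nid1 with Nid2 had r = -0.24, and -0.59 without C1 and C3. Lamb1, with a residual SD between arrays of 0.96, had r = 0.54 with Lamc1, and 0.55 without R1 and C3. Lama1 with Lamc1 had r = 0.38, and 0.84 without C3 and C2. Lama4 with Lamc1 had r = 0.43, and -0.39 without C3 and C1. Col3a1 with Col5a2 had r = -0.10, and 0.02 without M1 and R3. Leaving out 2 pools thus raised some of these values and lowered others, in some pairs across 0. The median r between pairs of basement membrane genes was 0.16, between pairs of fibrillar collagens 0.12, between the 2 classes 0.17, and between matrix genes and all features 0.02.

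**Figure D2:**
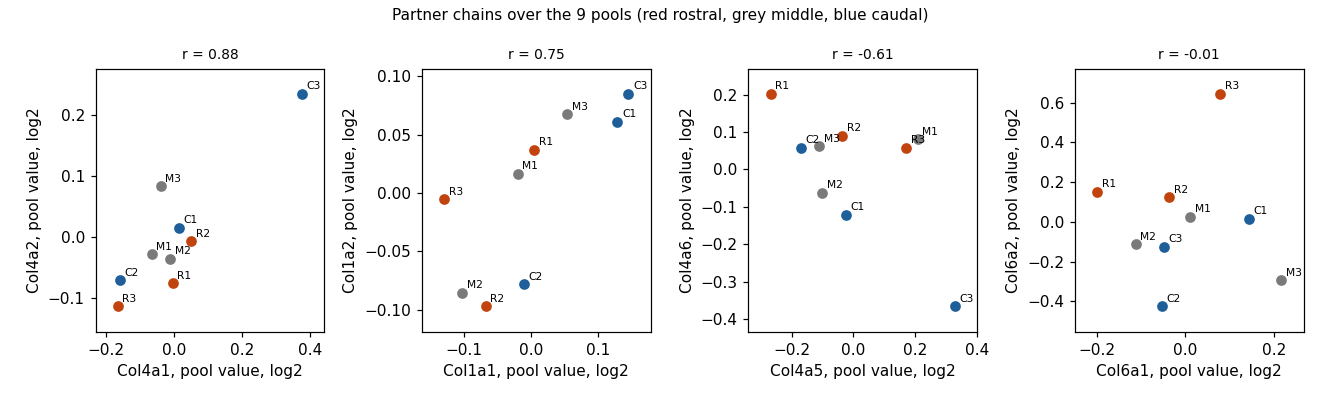
Pool values (log2) of 4 pairs of partner chains, 1 dot per pool, rostral in red, middle in grey and caudal in blue. For Col4a1 with Col4a2 the pool C3 stands apart at the upper right (r = 0.88, and 0.31 without C3 and R3).

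Of the other matrix genes, 14 were above and 8 below 0 in rostral minus caudal, with a median of 0.07. That median was 0.02 without C2 and -0.00 without centring, and its difference from the other classes was not tested. The medians were 0.05 for rostral minus middle and 0.03 for middle minus caudal. The pool C2 was the lowest by class median, at -0.13.

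Fbn2, fibrillin 2, the fibrillin of embryonic microfibrils, had the lowest unadjusted p of the matrix genes. Between arrays Fbn2 had a residual SD of 0.28, against a median of 0.26 over all features. Its values were -0.06, -0.25 and -0.14 in rostral pools, -0.01, -0.00 and 0.09 in middle pools and 0.16, 0.04 and 0.18 in caudal pools. Every rostral pool was below every middle and caudal pool, and the middle and caudal pools overlapped. The rostral minus caudal difference was -0.28 (SE 0.07, 1.21-fold, unadjusted p = 0.0047, limma adjusted p = 0.283), rostral minus middle was -0.18 (SE 0.07, unadjusted p = 0.0367, limma adjusted p = 0.929), and the F test gave an unadjusted p of 0.0134. Of the 6 direct arrays, 4 were below 0 in rostral minus caudal and 4 in rostral minus middle. The direct arrays differed by dye. Rostral minus caudal averaged -0.41 with rostral in Cy5 and -0.00 with rostral in Cy3, and rostral minus middle -0.54 and 0.03. Middle minus caudal, with middle in Cy5 and then in Cy3, averaged -0.57 and 0.22. Every pool was labelled with Cy5 on 2 arrays and with Cy3 on 2, so such an offset cancels in the region means, and without the dye term the differences were the same, -0.28 and -0.18. Fbn2 had an unadjusted p under 0.05 in rostral against caudal under 18 of 19 alternative settings, the exception being the fit without M3 (difference -0.25). In rostral against middle it did so under 9 of 19, and without centring that difference was -0.08. The settings refit the same arrays, the fit with arrays as samples among them, and Fbn2 was named for its low p-value. Such tallies describe how the value depends on processing and are no separate evidence for it.

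The fibulins bind to microfibrils and basement membranes. Fbln1 had -0.09, -0.03 and -0.12 in rostral pools, 0.07, 0.16 and 0.04 in middle pools and -0.01, -0.06 and 0.03 in caudal pools. The middle pools were above all rostral and all caudal pools. Rostral minus middle was -0.17 (SE 0.06, 1.12-fold, unadjusted p = 0.0205, limma adjusted p = 0.889), and 5 of 6 direct arrays were below 0. Without centring the difference was -0.07, and it had an unadjusted p under 0.05 under 11 of 19 alternatives. Fbln2 and Fbln5 had rostral minus caudal differences of 0.08 (SE 0.10) and 0.07 (SE 0.07).

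Collagen VI forms beaded filaments near basement membranes. Col6a2, its alpha 2 chain, had 0.15, 0.12 and 0.64 in rostral pools, 0.02, -0.11 and -0.29 in middle pools and 0.01, -0.43 and -0.12 in caudal pools. All rostral pools were above all others, and R3 was far above R1 and R2. The differences were 0.48 for rostral minus caudal (SE 0.18, 1.40-fold, unadjusted p = 0.028, limma adjusted p = 0.512) and 0.43 for rostral minus middle (SE 0.18, unadjusted p = 0.0431, limma adjusted p = 0.938). All 6 direct arrays were above 0 in each comparison. Without R3 the differences were 0.30 and 0.28. The partner chains differed among themselves. Col6a1 had -0.20, -0.04 and 0.08 in rostral pools, 0.01, -0.11 and 0.22 in middle pools and 0.14, -0.05 and -0.05 in caudal pools, with a difference of -0.07 (SE 0.11). Col6a3 had -0.17, 0.04 and -0.15 in rostral pools, -0.19, 0.15 and 0.51 in middle pools and 0.45, -0.68 and 0.04 in caudal pools, and its other probes gave 0.11 (SE 0.28) and -0.01 (SE 0.07). Col6a4 had 0.04, 0.12 and 0.15 in rostral pools, 0.19, -0.02 and -0.06 in middle pools and -0.34, -0.05 and -0.03 in caudal pools, with a difference of 0.25 (SE 0.11, unadjusted p = 0.0514, limma adjusted p = 0.638). As for Col6a2, its rostral pools were above its caudal pools and 6 of 6 direct arrays were above 0, but its rostral and middle pools overlapped.

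Col7a1, the chain of the anchoring fibrils of epithelia, had -0.06, -0.06 and -0.36 in rostral pools, 0.05, 0.03 and 0.09 in middle pools and -0.04, 0.22 and 0.12 in caudal pools. Every rostral pool was below every other pool, R3 by most. The rostral minus caudal difference was -0.26 (SE 0.10, 1.20-fold, unadjusted p = 0.0361, limma adjusted p = 0.566), 0 of 6 direct arrays were above 0, and without R3 it was -0.16. Col16a1, a collagen associated with fibrils, had 3.14 in C3 and between -0.80 and 0.25 in the other 8 pools, and its difference of -0.96 (SE 0.98) rests on that pool. Col10a1, known from growth plate cartilage, had the highest difference, 0.53 (SE 0.28, limma adjusted p = 0.765). Col26a1, with pools that did not overlap, had 0.30 (SE 0.20). Col12a1 and Col13a1 were measured more tightly, at 0.11 (SE 0.08) and 0.07 (SE 0.08). The remaining members, Col8a1, Col8a2, Col9a1, Col9a2, Col14a1, Col17a1, Col19a1 and Col25a1, lay between -0.04 and 0.41, each with an interval that includes 0. The highest of these was Col14a1, and its second probe gave -0.87 (SE 0.89). Col9a3, Col22a1, Col23a1 and Fbln7 had values on 9, 9, 10 and 7 arrays and were not tested.

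**Figure D3:**
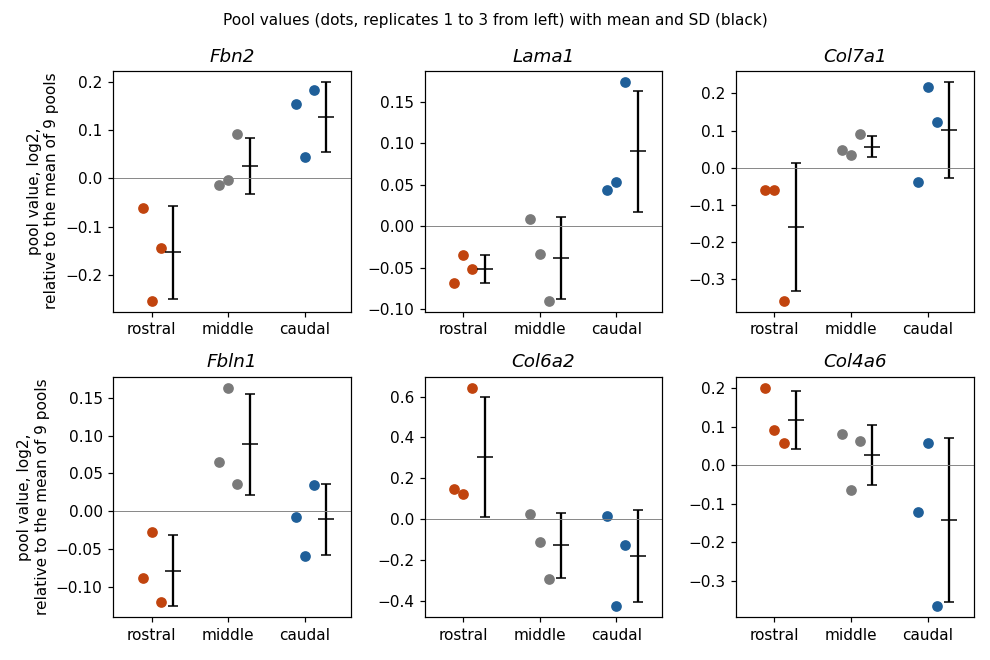
Pool values (log2, relative to the mean of the 9 pools) of the 6 matrix genes with an unadjusted p under 0.05 in a comparison, with mean and SD of 3 pools in black. Each panel has its own vertical scale. R3 stands apart for Col6a2 (0.64) and Col7a1 (-0.36), and C3 for Lama1 (0.17) and Col4a6 (-0.37).

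**Figure D4:**
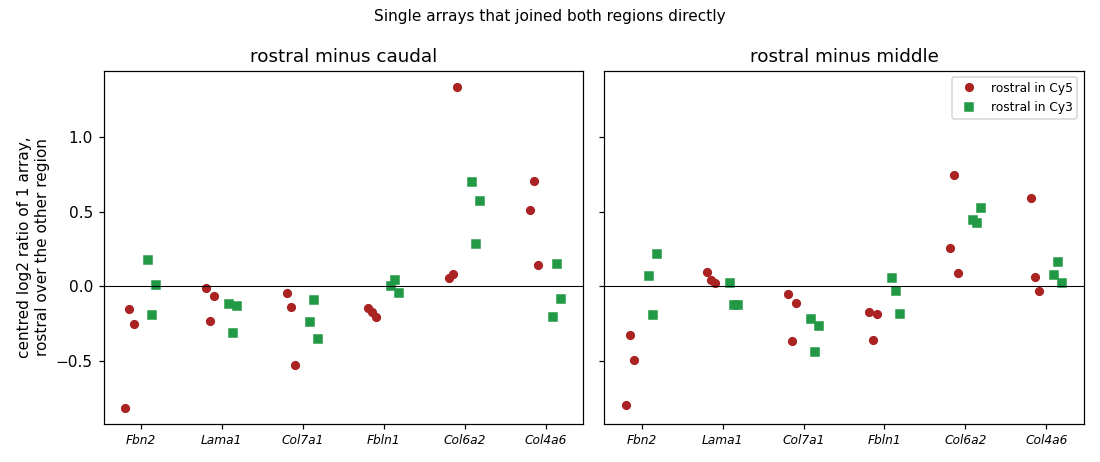
Centred log2 ratios of the single arrays that joined rostral with caudal (left) and with middle (right), with rostral in Cy5 as dots and in Cy3 as squares. Col6a2 is above 0 on 6 of 6 arrays in each panel, and Fbn2 is lower with rostral in Cy5.

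Markers of other cells were set beside the matrix genes, and 0 passed the adjustment in any list or comparison. Of 16 tested meninges markers, 3 were above and 13 below 0 in rostral minus caudal, with a median of -0.17. Their median by pool was between -0.14 and 0.06 in rostral pools, between -0.14 and 0.01 in middle pools and between 0.04 and 0.13 in caudal pools. Ptgds, Gjb6 and Dcn, picked for the lowest unadjusted p of the list, were highest in the caudal pools. Of 16 endothelial markers 5 were above and 11 below 0, with a median of -0.07. The 7 red blood cell markers were all below 0 in rostral minus middle, with a median of -0.25. In rostral minus caudal the medians were 0.04 for mural cells, 0.03 for surface epithelium, -0.01 for cartilage and bone, -0.17 for red blood cells and -0.03 for the neural wall. The Gapdh control spots had medians of -0.09, -0.04 and -0.15 in rostral pools, 0.07, 0.09 and 0.08 in middle pools and -0.14, 0.03 and 0.15 in caudal pools. With that median as a covariate in limma, the rostral minus caudal differences were -0.10 for Lama1 (unadjusted p = 0.122), 0.35 for Col6a2 (0.121), -0.16 for Col7a1 (0.151), 0.20 for Col4a6 (0.169) and -0.29 for Fbn2 (0.0131). In rostral minus middle they were 0.22 for Col6a2 (0.376), -0.13 for Fbln1 (0.139) and -0.19 for Fbn2 (0.101). The part of these cells and of the Gapdh pattern in the matrix genes' values was not tested further.

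**Figure D5:**
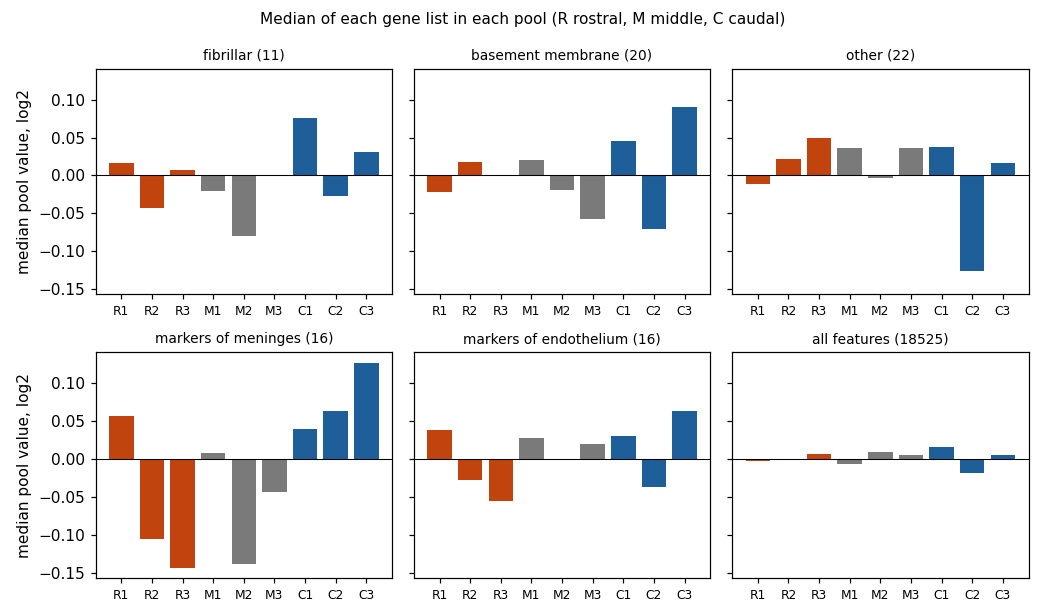
Median pool value (log2) of each matrix class, of meninges and endothelium markers and of all features, as bars for the 9 pools, with the number of genes in brackets. Meninges markers are above 0 in all 3 caudal pools (0.04 to 0.13), whereas basement membrane genes are above 0 in C1 and C3 and below in C2.

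Genes that make, bind or cut the matrix were listed beside the members. In rostral against caudal 0 of 20 genes of collagen and laminin processing, 0 of 13 receptors, 0 of 13 partners of elastic fibres and perlecan and 0 of 11 proteases and inhibitors passed the adjustment in either direction. In the same order, 8, 7, 5 and 4 genes were above 0 and 12, 6, 8 and 7 below. The list medians were -0.04, 0.03, -0.14 and -0.16. The genes named below were picked for the lowest unadjusted p of their list, so they do not stand for it. Ltbp1, which binds fibrillin and holds latent TGF-beta, had the largest difference among those named. It had -0.31, -0.67 and -0.34 in rostral pools, -0.06, -0.32 and -0.23 in middle pools and 0.65, 0.76 and 0.52 in caudal pools. All caudal pools were far above the others, and the difference was -1.08 (SE 0.12, 2.12-fold, limma adjusted p = 0.0571). Mfap2, a glycoprotein of microfibrils, went the other way: its rostral minus caudal difference was 0.49 (SE 0.11, limma adjusted p = 0.217). Itga6, a laminin receptor subunit, had -0.17, -0.22 and -0.09 in rostral pools and 0.17, 0.13 and 0.26 in caudal pools, a difference of -0.35 with no overlap (limma adjusted p = 0.206). Loxl1, which crosslinks elastin, was lowest in the middle pools, at -0.31, -0.12 and -0.37, against 0.23, 0.05 and 0.19 in caudal pools. Its middle minus caudal difference was -0.42 (SE 0.09, limma adjusted p = 0.413). It was noisy, with a residual SD between arrays of 0.69, against a median of 0.26 over all features. Fn1, fibronectin, had -0.12, -0.11 and -0.05 in rostral pools and 0.07, 0.08 and 0.09 in caudal pools. Its difference was -0.17 (SE 0.05, limma adjusted p = 0.34). Timp3, an inhibitor of matrix proteases, had -0.04, -0.16 and -0.12 in rostral pools and 0.14, 0.16 and 0.04 in caudal pools. Its difference was -0.22 (SE 0.06, limma adjusted p = 0.343), and that of Timp1 was -0.37 (SE 0.13, limma adjusted p = 0.476). Adamts9, of the same list, went the other way, at 0.52 (SE 0.15, limma adjusted p = 0.373), and its rostral and caudal pools did not overlap.

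Among 10337 features outside the rule with values on all arrays, the genes most like the fibrillar median over the 9 pools were Adam22, Exoc4, Stam, Mettl3 and Ctnna2, with r between 0.93 and 0.96. Those most like the basement membrane median were Pgp, Evi5, Nsg2, Ipo8 and Rab5a, with r between 0.91 and 0.95. With so many features and 9 pools, such values are a description only.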

How the data were processed

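The authors deposited 1 log2 ratio per probe and array, with the base read from a repeated extreme value that equals log2 of 100000. Which scanner, background correction and normalization were used, and the ratio direction, is not stated in the labels or the table used here. Those 1477 capped ratios were set to missing, each array was centred on its median (array medians lay between -0.09 and 0.61), and features with values on at least 12 arrays and 2 per pool were kept. Probes were named through the platform annotation.

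Pool values were fitted per feature by least squares with a dye term. limma 3.58.1 (R 4.3.3; lmFit, eBayes) was run on the 9 pool values with region as factor (6 residual and 1.26 prior degrees of freedom), two-sided, with Benjamini-Hochberg adjustment over 18525 features. The procedure was checked on simulated data. The matrix genes and all gene lists were chosen with earlier results of these data known. Pool values are given for members with an unadjusted p under 0.05 and for their partner chains. Of each other list, up to 3 genes with the lowest unadjusted p in any comparison were eligible to be named. Col1a1, Col1a2, Col2a1, Lama4, Col16a1 and the correlated pairs were added after their values were seen. There were 19 alternatives.

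Deviations of pools of the same number had correlations between -0.364 and -0.0368. No array joined pools of the same number, so array noise alone can push these correlations below 0 in the fit. They therefore cannot decide whether the numbers mark a shared embryo or dissection. Numbers were not used as pairs in the main fit and entered as a block in an alternative.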

Additional observations from a re-analysis of the deposited data

How the results depend on the processing

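Under 19 alternatives, 9 of them leaving out 1 pool each, single-gene values with an unadjusted p under 0.05 lost that threshold in 60 of 152 comparisons and turned direction in 1, the mean of all Lama1 probes (0.0257). Treating arrays as samples, which ignores that arrays share pools and so counts each pool several times, was the one alternative in which matrix genes passed the adjustment: 5 in rostral against caudal (Fbn2, Col6a2, Col7a1, Lama1 and Col2a1), 2 in rostral against middle and 1 in middle against caudal, beside 1325 (7.15%), 703 (3.79%) and 501 (2.7%) features and 1486 in the F test. Unadjusted counts of matrix genes were then 12, 5, 6 and 11 in the same order.

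Without centring, the median of all features moved to -0.07, 0.10 and -0.17 in rostral minus caudal, rostral minus middle and middle minus caudal. The class medians moved with it: fibrillar -0.12, 0.10 and -0.23, basement membrane -0.15, 0.0898 and -0.21, and others -0.00394, 0.15 and -0.14. Unadjusted counts of matrix genes were 3, 1, 7 and 4, and 0 features passed in rostral against caudal or in the F test. With the replicate block (pool number), 0 features passed in either, and 2 and 1 matrix genes had an unadjusted p under 0.05 in rostral against caudal and against middle. With the Gapdh covariate, 0 features passed in either, the counts in rostral against middle, middle against caudal and the F test were 1, 1 and 4, and medians were -0.0154 (others, rostral minus middle) and -0.0162 (fibrillar, middle minus caudal).

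Features on all 18 arrays gave 46 features in rostral against caudal and 20 in the F test, with 1 matrix gene in middle against caudal and 4 in the F test unadjusted. Features on fewer arrays gave 7 and 0. With capped ratios kept, 0 features passed the F test and 1 matrix gene was found in middle against caudal. With the mean of all probes these were 0 features and, in the F test, 2 matrix genes. Without the 4 arrays with most capped ratios, 3 and 0 features passed, 2 and 3 matrix genes were found in middle against caudal and the F test, and medians were 0.0108, -0.0165 and 0.13 (fibrillar, basement membrane and others, rostral minus caudal) and 0.00806 and 0.0998 (fibrillar and others, middle minus caudal).

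Leaving out 1 pool at a time gave 0 to 4 features in rostral against caudal, 0 to 1 in the F test, and 2 to 6, 0 to 3, 0 to 4 and 0 to 3 matrix genes unadjusted in the 3 comparisons and the F test. Fewer samples enter these fits. Medians ranged from -0.0710 to -0.00161 (fibrillar) and from -0.0984 to -0.00329 (basement membrane, the latter without C3) in rostral minus caudal, and from -0.11 to -0.0184 (fibrillar), -0.13 to -0.0117 (basement membrane) and -0.0235 to 0.0881 (others) in middle minus caudal. Apart from settings named here as changing the samples or features entered, the cause was not tested.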

Other observations

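A split chosen after the values were seen set apart the 12 matrix genes whose residual SD between arrays was at most 0.121, the level under which the most precise 4631 features lay. Of these, 10 were below 0 in rostral minus caudal, with a median of -0.08, beside 52% of those features. The 2 above 0 were Col11a2 (0.07) and Col12a1 (0.11). Of the 12, 3 had pools that did not overlap, beside 21.6% of those features: Lama1 and Col7a1, lower in rostral pools, and Col11a2, higher. Of the 10, Col1a1, Col2a1, Col4a2, Lamc1, Nid1 and Fbln1 were below 0 in C2, and Col3a1, Lama1, Lama2 and Col7a1 above. C3 was the highest pool for Col1a1, Col2a1, Col4a2 and Lama1. All share the same 9 pools, so the 10 do not count as independent. In rostral minus middle 8 of the 12 were below 0, beside 57.6% of those features, and in middle minus caudal 9, beside 41.7%.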
